A study of Homo sapiens with 4 samples.

Results

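Polycomb repressive complex 2 (PRC2) was followed through 10 genes: the catalytic subunits EZH1 and EZH2, the core subunits EED, SUZ12 and RBBP4, and the accessory factors PHF1, MTF2, PHF19, JARID2 and AEBP2. They were taken by symbol as core and accessory PRC2 genes linked to the long noncoding RNA HOTAIR, and all 10 were found among the 39519 named genes of the expression table. RNA came from U2OS, an established human osteosarcoma line, in 4 libraries of ribosome-depleted total RNA. The 2 sh-NC libraries came from control cells given DMSO. The 2 sh-PURB libraries came from cells in which doxycycline (5 µg/ml, 72 h) induced knockdown of PURB, a single-stranded nucleic acid binding protein. Doxycycline and knockdown cannot be told apart, because only the sh-PURB cells received the drug. The labels give neither the hairpin nor the number of clones, and they do not say that replicates were separate cultures, so the p-values measure the spread between these libraries only, which may be technical.

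PRC2 places methyl groups on histone H3 and leaves H3K27me3, the mark of polycomb-silenced chromatin. EZH1 or EZH2 carries the methyltransferase, SUZ12 is the scaffold, EED binds the mark and stimulates the enzyme, and RBBP4 is a histone-binding protein shared with other chromatin complexes. A core joins either a polycomb-like protein (PHF1, MTF2 or PHF19), to give the PRC2.1 form, or JARID2 and AEBP2, to give the PRC2.2 form. HOTAIR is known as an RNA that can associate with PRC2.

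Levels are in TPM, transcript abundances that are scaled by transcript length within each library, so levels of different genes can be set side by side but the read depth behind them is unknown. The libraries held 22822 to 24156 genes above 0, and the RNAs of protein-coding genes took 25.3% to 26.9% of the total. PURB stood at 5.29 and 6.55 TPM in sh-NC and at 2.46 and 2.69 TPM in sh-PURB. HOTAIR stood at 2.07 and 3.78 TPM in sh-NC and at 1.08 and 1.72 TPM in sh-PURB. The groups did not overlap for either gene, and neither passed limma over all genes (adjusted p = 0.102 and 0.363). Among protein-coding genes alone, PURB passed, with a limma adjusted p of 0.0315 and a difference of -1.07. The tissue label is bone: of the osteoblast and mesenchymal markers VIM stood at 298 to 342 TPM and SPARC at 220 to 262 TPM, whereas ALPL reached at most 0.239 TPM and COL1A2 at most 0.509 TPM. Among markers of other cell types, KRT8 stood at 86.2 to 115 TPM and KRT18 at 84.2 to 114 TPM while CDH1 reached at most 0.563 TPM, the 3 blood markers summed to 0.664 to 1.68 TPM and the 2 endothelial markers to 0.264 to 0.733 TPM.

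None of the PRC2 genes was called as different between sh-PURB and sh-NC, and most had the lower mean in sh-PURB. MTF2, PHF1, JARID2, EZH2 and RBBP4 stood at 62.2% to 81.6% of control and were below both controls in each sh-PURB library. EED, SUZ12 and AEBP2 stood at 90.6% to 102% of control with overlapping groups. EZH1, at 87.0% of control, was nearly level in 1 of the sh-PURB libraries. PHF19 lay higher in both sh-PURB libraries, at 1.12 times control. Which of the small differences separated the groups depended on the scaling: with median-ratio rescaling or quantile normalization PHF19 overlapped and EED lay higher in both. With TPM recomputed without the most abundant and the mitochondrial genes, which moved the median of all genes by 0.13, PHF19, EED and SUZ12 all lay higher in both. EZH1 overlapped under all of these and among protein-coding genes alone.

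Over 14269 tested genes, limma on log2(TPM + 1) with Benjamini-Hochberg adjustment called 0 of the 10 members at 0.05, where 0.287% of all tested genes were called, 0.203% lower and 0.0841% higher. The members' adjusted p-values ran from 0.188 to 0.966. In simulated data the same fit called 5.45% of 2-fold changes, so the lack of a call does not show that a gene was unchanged. At an unadjusted p under 0.05 there were 4 members, RBBP4, JARID2, PHF1 and MTF2, all lower, where 9.53% of all genes were lower and 5.77% higher at that level. That count, with the share of all genes in either direction (15.3% here), changed with the setting. It was 1 with recomputed TPM (16.7%) and 2 with median-ratio rescaling (15.0%). It was 3 with quantile normalization (16.2%), protein-coding genes alone (18.4%), no limma trend (14.6%) or no filter (11.1%). With the filter at TPM 5 it was 3 of 8 members (17.9%), and it stayed at 4 with the replicate block (22.2%). A fit with 1 library left out has a group of 1, so only differences are given here, and they do not show that the count is stable. Those of the 4 members ran from -0.56 to -0.26. Both sh-PURB libraries lay below both sh-NC libraries for 6 members, where 29.3% of all genes did, and above them for 1 member, where 18.6% did. The groups were thus apart for 7 members, beside 47.9% of all genes. The median difference of the members was -0.23, beside -0.06 for all tested genes, and 8 members were below 0, as were 58.4% of all genes. All 10 passed the filter on low values (1 TPM or more in 2 or more libraries). When only protein-coding genes were kept and their TPM set to a shared total, limma called 0 members at the adjusted threshold, where 3.39% of genes were called, 2.09% lower and 1.3% higher. In bulk RNA, fewer cells of a type and less RNA per cell cannot be told apart.

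**Figure D1:**
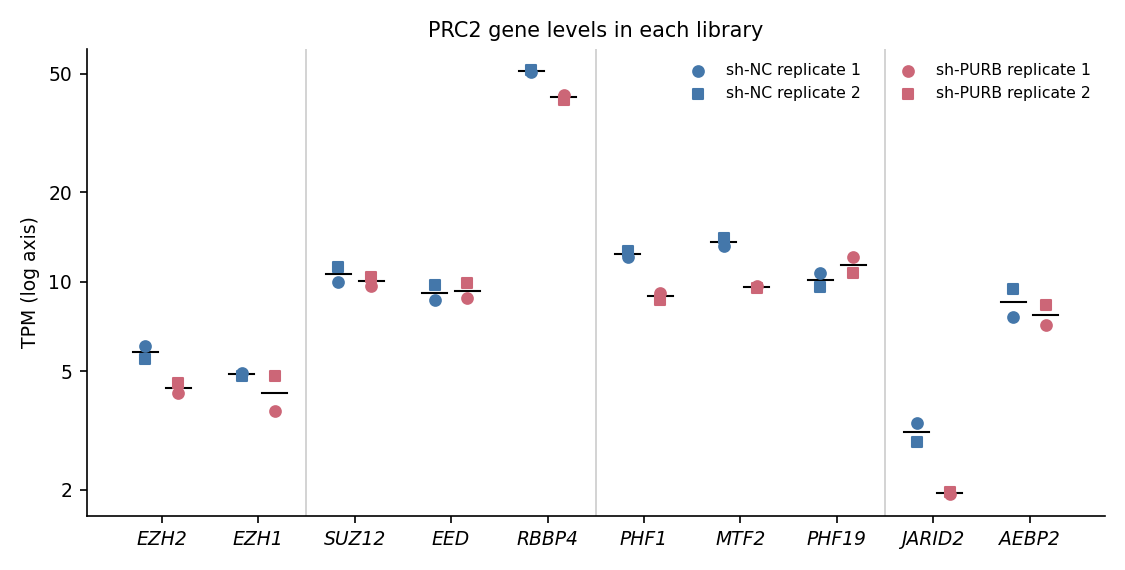
TPM of the 10 PRC2 genes in each library on a log axis, with circles for replicate 1, squares for replicate 2 and a line at each group's mean (n = 2 per group). RBBP4 is the most abundant at 40.9 to 51.2 TPM and JARID2 the least at 1.93 to 3.34 TPM. JARID2, MTF2, PHF1, RBBP4 and EZH2 show a gap between groups, with MTF2 at 13.2 and 14.1 against 9.71 and 9.49 TPM. JARID2 is at 3.34 and 2.90 against 1.93 and 1.96 TPM, and EZH1 and PHF19 are apart only by a narrow margin.

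EZH2, the main methyltransferase of dividing cells (chromosome 7, 148807383 to 148884321, minus strand, GRCh38), stood at 6.10 and 5.50 TPM in sh-NC and at 4.21 and 4.56 TPM in sh-PURB. Both sh-PURB values were lower than both controls. The means were 5.80 ± 0.424 and 4.39 ± 0.248 TPM (SD, n = 2 each), or 75.6% of control. The difference in log2(TPM + 1) was -0.34 with a standard error of 0.15 and a limma adjusted p of 0.379. Its 95% interval, not adjusted for the number of genes, ran from -0.72 to 0.05.

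The window before the RefSeq start of EZH2 is shown because it carries CCAAT on either strand 4 times, a word bound by the factor NF-Y. Of 35116 human promoter windows of 300 bases 0.991% do so (1.52% of the windows of tested genes). The last 22 bases shown, with the last word, lie in an exon annotated in GENCODE v29, whose gene coordinates are those given above. At least 1 copy was found in 34.6% of all windows. Capitals mark the 4 words in the minus strand sequence of chr7:148884300-148884541 (RefSeq, GRCh38.p14).
EZH2: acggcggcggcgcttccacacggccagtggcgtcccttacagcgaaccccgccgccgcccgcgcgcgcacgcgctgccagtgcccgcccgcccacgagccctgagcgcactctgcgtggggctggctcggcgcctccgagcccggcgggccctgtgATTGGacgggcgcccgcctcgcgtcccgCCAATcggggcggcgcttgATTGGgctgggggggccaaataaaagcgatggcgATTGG

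EZH1, the second methyltransferase of the complex and the one typical of resting cells (chromosome 17, 42700275 to 42745049, minus strand), stood at 4.94 and 4.81 TPM in sh-NC. In sh-PURB it stood at 3.67 TPM in replicate 1 and 4.81 TPM in replicate 2. The groups were apart only by the margin between 4.8088 and 4.8082 TPM, so the lower mean (87.0% of control) rested on sh-PURB replicate 1. The log2 difference was -0.17 with a standard error of 0.18 (limma adjusted p = 0.703), and -0.02 without that library.

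EZH1 made up 44.8% and 46.6% of the summed EZH1 and EZH2 TPM in sh-NC, against 46.6% and 51.3% in sh-PURB. This share does not move with the scaling of a library. The groups overlapped, and the two-sided p from exact permutation of the libraries was 0.667, where 0.3333 is the smallest that 2 against 2 allow. The summed TPM of both enzymes was 10.7 ± 0.517 in sh-NC and 8.63 ± 1.05 in sh-PURB (SD, n = 2 each).

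Among the other genes of the polycomb and partner lists, the profiles nearest to EZH2 over the 4 libraries, by Euclidean distance between mean-centred log2(TPM + 1) values, were SMARCA1 (0.0638), BAP1 (0.0653), ASF1A (0.138), HMG20B (0.145) and CHD4 (0.146). CHD3 (0.0391), HOXD8, E2F5, NSD2 and RCOR3 (0.0982) were nearest to EZH1. Both rankings were over 128 genes, and with 4 libraries they are a description only.

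SUZ12, the scaffold (chromosome 17, 31937018 to 32001045), stood at 9.97 and 11.2 TPM in sh-NC and at 9.66 and 10.4 TPM in sh-PURB. Replicate 1 was the lower library in both groups, and the groups overlapped. The difference was -0.07 with a standard error of 0.13 (limma adjusted p = 0.846), and relative to the median of all genes it lay between -0.03 and -0.01 under the scalings tried.

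SUZ12 has a transcribed partial copy, SUZ12P1, which was the more abundant of the pair in every library. SUZ12P1 stood at 14.8 and 19.1 TPM in sh-NC and at 11.3 and 16.0 TPM in sh-PURB. In the GENCODE v29 transcripts, 9.16% of the distinct 31-base words of SUZ12 also occur in SUZ12P1, counting both strands. Reads from those stretches are compatible with both genes, so the division between them is uncertain. SUZ12 made up 40.3% and 37.1% of the pair in sh-NC and 46.2% and 39.3% in sh-PURB.

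EED, the reader of H3K27me3 (chromosome 11, 86244544 to 86278813), stood at 8.64 and 9.73 TPM in sh-NC, against 8.80 and 9.87 TPM in sh-PURB. Replicate 1 was again the lower library in both groups. Its difference of 0.02, with a standard error of 0.14 (limma adjusted p = 0.966), had an interval from -0.35 to 0.39. Relative to the median of all genes EED lay between 0.07 and 0.09 under the scalings tried, and SUZ12 was nearer to that median.

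RBBP4 (chromosome 1, 32651142 to 32686211) was the most abundant member. It stood at 50.7 and 51.2 TPM in sh-NC and at 42.3 and 40.9 TPM in sh-PURB, means of 51.0 ± 0.351 and 41.6 ± 0.971 TPM. The gap between groups was larger than the spread within either. The difference was -0.29 with a standard error of 0.095 (limma adjusted p = 0.266). Its size depended on the scaling, at -0.21 with median-ratio rescaling and -0.14 with recomputed TPM. Relative to the median of all genes RBBP4 lay between -0.29 and -0.22 under the scalings tried.

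RBBP7, the close relative of RBBP4 that takes the same place in the complex, stood at 27.5 and 28.3 TPM in sh-NC and at 26.6 and 24.3 TPM in sh-PURB. RBBP4 therefore made up 64.9% and 64.5% of the pair in sh-NC and 61.4% and 62.7% in sh-PURB. This share was chosen after its values were seen. RBBP4 shares 29.6% of its distinct 31-base words with other genes, the most of any member. SYNC, which overlaps it on the opposite strand and shares 16.6%, stood at 1.99 to 2.74 TPM, and RBBP4P1, the processed copy that shares the most words with it, at 0.0567 to 0.244 TPM.

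The polycomb-like proteins, which bring PRC2.1 to CpG-rich DNA, differed among themselves. MTF2 (chromosome 1, 93079235 to 93139081) stood at 13.2 and 14.1 TPM in sh-NC and at 9.71 and 9.49 TPM in sh-PURB, or 70.5% of the control mean. Group means were 13.6 ± 0.610 and 9.60 ± 0.149 TPM, and the libraries did not overlap. The difference was -0.46 with a standard error of 0.12. MTF2 had the smallest limma p of the 10 members (0.0131, adjusted p = 0.188), at rank 991 of all tested genes.

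PHF1 (chromosome 6, 33410399 to 33416453) stood at 12.1 and 12.6 TPM in sh-NC and at 9.15 and 8.71 TPM in sh-PURB, 72.2% of control. Here too both sh-PURB libraries lay below both controls. The difference was -0.43 with a standard error of 0.12 (limma adjusted p = 0.221). PHF1 overlaps CUTA (33416442 to 33418317) only at the ends of the 2 genes. CUTA lies on the opposite strand and stood higher, at 53.3 and 48.1 TPM in sh-NC, against 62.5 and 56.6 TPM in sh-PURB. No 31-base word of the PHF1 transcripts, read on both strands, occurs in GENCODE v29 transcripts of another gene, CUTA included. The sources used here do not state a strand setting or the annotation behind the TPM.

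PHF19 (chromosome 9, 120855652 to 120894896, minus strand) stood at 10.7 and 9.61 TPM in sh-NC, against 12.1 and 10.7 TPM in sh-PURB. The nearest libraries, sh-NC replicate 1 at 10.689 TPM and sh-PURB replicate 2 at 10.692 TPM, almost touched. The difference of 0.15, with a standard error of 0.14 (limma adjusted p = 0.670), had an interval from -0.21 to 0.51.

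PHF19 took a larger share of the polycomb-like family in both sh-PURB libraries, where the other members of the family were lower. Mean levels went from 12.4 to 8.93 TPM for PHF1, from 13.6 to 9.60 TPM for MTF2 and from 10.2 to 11.4 TPM for PHF19. The larger share and the higher rank given below thus reflect the lower PHF1 and MTF2 as well as PHF19 itself. It was 29.7% and 26.5% of the summed PHF1, MTF2 and PHF19 TPM in sh-NC, against 39.0% and 37.0% in sh-PURB. The means were 28.1% ± 2.29 and 38.0% ± 1.43 (SD, n = 2 each), so the groups lay apart by more than the spread within either. This share was chosen after its values were seen and has no test. By mean level in sh-NC the order was RBBP4, MTF2, PHF1, SUZ12, PHF19, EED, AEBP2, EZH2, EZH1 and JARID2, with overlapping libraries between the neighbours from SUZ12 to AEBP2. In sh-PURB PHF19 stood at rank 2, apart from RBBP4 above it and SUZ12 below it, SUZ12, MTF2, EED and PHF1 overlapped their neighbours, and so did EZH2 and EZH1.

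**Figure D2:**
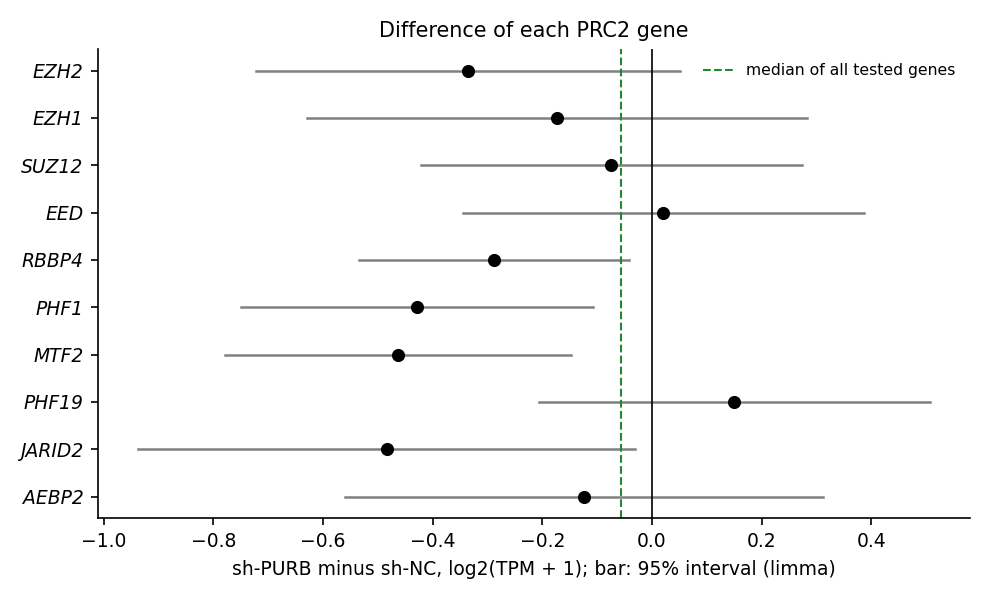
Difference of each PRC2 gene between sh-PURB and sh-NC in log2(TPM + 1), with points at the limma estimate, bars for its 95% interval and a dashed line at the median of all tested genes (-0.06). MTF2 (-0.46), PHF1 (-0.43), JARID2 (-0.48) and RBBP4 (-0.29) have intervals below 0 before adjustment, and PHF19 (0.15) and EED (0.02) are the points above 0.

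JARID2, a DNA-binding cofactor of PRC2.2 and the member with the lowest level (chromosome 6, 15246296 to 15522040), stood at 3.34 and 2.90 TPM in sh-NC. It was at 1.93 and 1.96 TPM in sh-PURB, 62.2% of control and the lowest ratio of the 10. The libraries did not overlap. The difference was -0.48 with a standard error of 0.18 (limma adjusted p = 0.302), and adding 1 TPM before the log understates a difference of so low a gene. The antisense gene JARID2-AS1 within it was listed at 0 in 3 libraries and at 0.0511 TPM in the other.

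One of the JARID2 promoter windows is shown because it carries the word TGACGTCA, a cyclic AMP response element bound by CREB and ATF factors, 2 times. At least 1 copy was found in 1.85% of all promoter windows (2.86% of those of tested genes), and 2 or more in 0.0598% (0.093%). Capitals mark the words in chr6:15248605-15248854, plus strand. The word is its own reverse complement and overlaps none of the other words searched, and its presence here says nothing of binding in U2OS cells.
JARID2: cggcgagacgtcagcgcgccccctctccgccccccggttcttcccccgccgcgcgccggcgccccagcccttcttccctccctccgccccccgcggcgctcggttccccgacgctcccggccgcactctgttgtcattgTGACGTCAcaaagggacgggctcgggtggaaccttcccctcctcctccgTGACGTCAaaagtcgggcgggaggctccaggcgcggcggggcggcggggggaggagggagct

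AEBP2, the zinc finger partner of JARID2 in PRC2.2 (chromosome 12, 19404045 to 19720801), stood at 7.60 and 9.46 TPM in sh-NC and at 7.13 and 8.33 TPM in sh-PURB. The groups overlapped, and replicate 1 was the lower library in both. The difference was -0.12 with a standard error of 0.17 (limma adjusted p = 0.786). JARID2 made up 30.6% and 23.4% of the summed JARID2 and AEBP2 TPM in sh-NC, against 21.3% and 19.03% in sh-PURB, a share chosen after its values were seen.

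The balance between the accessory groups of the PRC2 forms was nearly level. PHF1, MTF2 and PHF19 together made up 76.7% and 74.6% of the TPM of all 5 accessory genes in sh-NC and 77.4% and 73.7% in sh-PURB. The difference of means was -0.0833 percentage points, smaller than the spread between replicates, and the two-sided p from exact permutation of the libraries was 1.

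**Figure D3:**
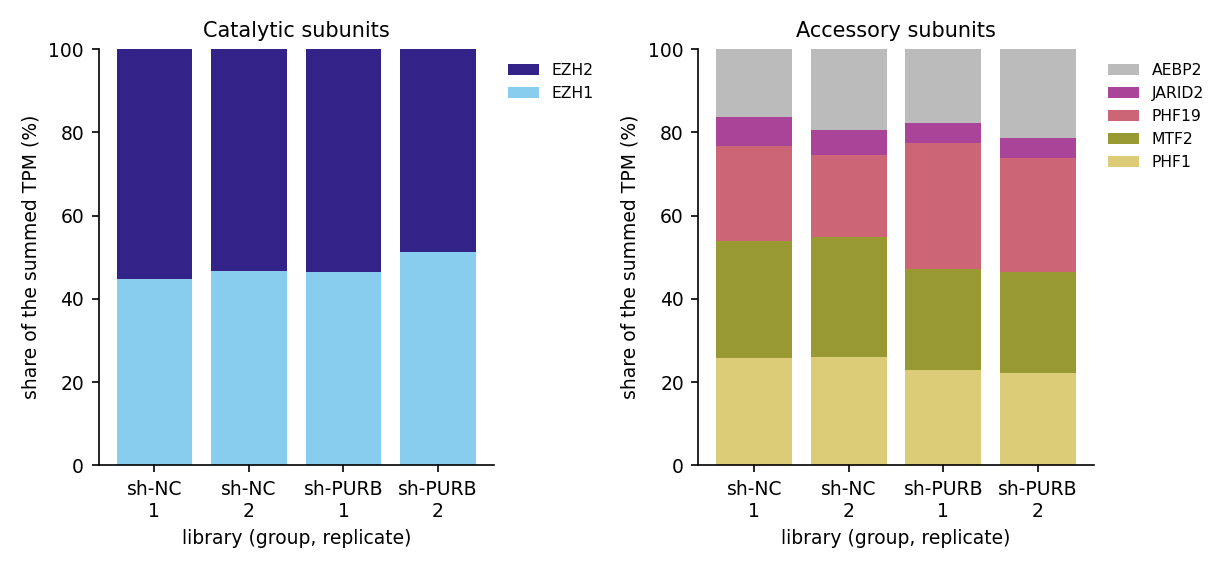
Share of each subunit in the summed TPM of EZH1 and EZH2 (left) and of the 5 accessory genes (right), in percent, with 1 bar for each library. PHF19 is 22.8% and 19.8% of the accessory TPM in sh-NC and 30.2% and 27.3% in sh-PURB, MTF2 is 28.1% and 28.9% against 24.3% and 24.2%, and EZH1 lies between 44.8% and 51.3%.

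Of the other accessory genes listed, LCOR stood at 6.63 to 7.55 TPM and LCORL at 5.16 to 6.31 TPM over the 4 libraries, both named after their values were seen. EPOP, a PRC2.1 component, stood at 1.53 and 1.43 TPM in sh-NC and at 1.78 and 1.49 TPM in sh-PURB. EZHIP, which blocks the methyltransferase, stood at 0.853 and 1.45 TPM in sh-NC and at 1.48 and 1.24 TPM in sh-PURB. Groups overlapped for LCORL, EPOP and EZHIP, while LCOR was below both controls in each sh-PURB library, by a narrow margin (7.47 against 7.44 TPM). EPOP and EZHIP were at lower levels than LCOR and LCORL. These levels are per gene and do not separate the transcripts of a gene.

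Promoter windows of the members were compared next, since EZH2 and other PRC2 genes are known targets of E2F factors. RefSeq gave 14 windows of 300 bases for the 10 genes, from 250 before to 50 after an annotated start. The E2F words TTTGGCGC, TTTCGCGC, TTTCCCGC and TTTGCCGC, on either strand, occurred in windows of 6 members (6 of 14 windows), where 3.31% of all windows and 4.94% of the windows of tested genes held one. With the first T left out, the words occurred also in RBBP4 (8 of 14 windows), and 13% of all windows and 19% of those of tested genes held one. The RBBP4 windows overlap and hold the same words at the same place, so that place is counted more than once. The 30 bases around each word are shown to compare the members, with the word in capitals. RBBP4 has the shorter word on each strand, in 10 joined letters, and every other capital run is 1 of the longer words or its reverse complement.
EZH2: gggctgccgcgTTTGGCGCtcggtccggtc
EZH1: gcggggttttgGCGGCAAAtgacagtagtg
SUZ12: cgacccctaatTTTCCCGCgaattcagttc
MTF2: accggcagtccGCGGGAAAccaaaatggcg
PHF19: gtcaataattcGCGGGAAAacgcgaaaaag
AEBP2: caaggcgacgtTTTGCCGCgatccccctgc
RBBP4: attggctgatgTTGGCGCGAAggtgcgcga

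They lie at chr7:148884272-148884301 (minus strand), chr17:42745137-42745166 (minus), chr17:31936807-31936836 (plus), chr1:93079277-93079306 (plus), chr9:120877322-120877351 (minus), chr12:19440438-19440467 (plus) and chr1:32651154-32651183 (plus). The EZH2, MTF2 and RBBP4 stretches lie wholly in exons annotated in GENCODE v29, and the PHF19 stretch lies partly in one. Read on either strand, MTF2, PHF19 and SUZ12 hold the same word, with log2 differences of -0.46, 0.15 and -0.07. EZH1 and AEBP2 share another, with differences of -0.17 and -0.12, and none of these genes was called. The purine repeat GGNGGNGGN, of the kind PUR proteins bind, was found in 10 of the 14 windows, where 52.7% of all windows and 68.1% of those of tested genes held it. The GC box GGGCGG was found in 12 of the 14, where 45% of all windows and 65.5% of those of tested genes held it. These 2 words often overlapped each other, and all words were read on both strands. These matches were looked for after the expression values were seen and are descriptions of the sequence.

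The other polycomb and partner genes were then read from the same fit, in 12 lists written with earlier results of these data known. Limma called 0 of their 119 tested genes outside the members, and 1 of them, RUNX3, among protein-coding genes alone. At an unadjusted limma p under 0.05 there were 10 lower (8.4%) and 1 higher (0.84%), beside 9.53% and 5.77% of all tested genes. Their median difference was -0.13. Both sh-PURB libraries lay below both controls for 42 (35.3%) and above them for 7 (5.88%), beside 29.3% and 18.6% of all tested genes. The counts below 0 in single lists are to be read against the 58.4% of all tested genes that were below 0.

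PRC1, the complex that binds H3K27me3 and ubiquitinates histone H2A, was also mostly below 0. Of 8 core genes 6 were below 0 (median -0.22), and none of the 8 reached an unadjusted limma p of 0.05. The ubiquitin ligases RING1 and RNF2 stood at 0.817 and 0.848 of control, and PCGF3 at 0.819. Of 13 canonical PRC1 genes 11 were below 0 (median -0.16). PHC2, a polyhomeotic protein, stood at 21.9 and 22.0 TPM in sh-NC and at 16.4 and 14.4 TPM in sh-PURB, with an adjusted p of 0.177 by limma. The chromobox readers of the mark were CBX2 at 0.694 and CBX7 at 0.593 of control. Of 15 variant PRC1 genes 10 were below 0 (median -0.07), with RYBP at 0.762, the deacetylase HDAC1 at 0.772 and WDR5 at 1.16 times control.

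The lists of enzymes that remove or oppose the marks differed in direction. All 4 H3K27 demethylases and acetylases were below 0 (median -0.22). Of 10 PR-DUB genes, the deubiquitinase complex of histone H2A, 6 were above 0 (median 0.06): its catalytic subunit BAP1 stood at 0.750 of control, FOXK2 at 1.15 and OGT at 1.19. The H3K27 demethylase KDM6A stood at 5.31 and 6.13 TPM in sh-NC, against 3.47 and 4.89 TPM in sh-PURB, and KDM6B was at 1.48 and 1.81 against 0.961 and 2.28 TPM. The acetyltransferases CREBBP and EP300 stood at 0.650 (limma adjusted p = 0.272) and 0.968 of control, with overlapping groups for EP300. Of 9 methyltransferases that oppose PRC2, 6 were below 0 (median -0.04), with NSD1, NSD2 and NSD3 at 1.12, 0.886 and 0.839 of control.

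Partners of HOTAIR and of RBBP4 outside PRC2 were mostly below 0. LSD1 with CoREST is known to bind HOTAIR at the end opposite to PRC2. Of 9 genes of that list 8 were below 0 (median -0.18). The scaffold RCOR1 stood at 2.87 and 2.50 TPM in sh-NC and at 1.17 and 1.84 TPM in sh-PURB, and HMG20B at 0.791 of control. Of 24 partners of RBBP4 and RBBP7, 21 were below 0 (median -0.15), and for 12 both sh-PURB libraries lay below both controls, as they did for 29.3% of all tested genes. The histone chaperone ASF1B stood at 9.01 and 10.1 TPM in sh-NC and at 5.87 and 6.45 TPM in sh-PURB, with an adjusted p of 0.178 by limma. The remodellers CHD4 and SMARCA1 stood at 0.865 and 0.745 of control.

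E2F factors and pocket proteins, which set the transcription of several PRC2 genes in cycling cells, were 10 of 11 below 0 (median -0.16). None of the 11 reached an unadjusted limma p of 0.05. E2F5, E2F8 and RBL1, with the smallest p, stood at 0.823, 0.737 and 0.851 of control. E2F1, E2F2 and E2F3 stood at 0.990, 0.814 and 0.852, TFDP1 at 0.951 and E2F4, the gene above 0, at 1.04. E2F7, RB1 and RBL2 stood at 0.893, 0.904 and 0.856. These signs were read from TPM as reported, and recomputed TPM moved the median of all genes by 0.13.

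Genes reported in other cells as silenced by PRC2, or by HOTAIR with PRC2, did not share a direction. Only 13 of 28 passed the filter, 9 below 0 and 4 above (median -0.15). RUNX3, a runt-domain transcription factor, stood at 3.72 and 3.34 TPM in sh-NC and at 0.879 and 1.26 TPM in sh-PURB. Its limma adjusted p was 0.0975 over all genes and 0.0268 among protein-coding genes alone. The angiogenesis inhibitor VASH1 stood at 0.481 of control and the BMP receptor BMPR1B at 2.06 times control, with adjusted p-values of 0.152 and 0.219 over all genes by limma. CDKN2A was listed at 0 in every library.

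**Figure D4:**
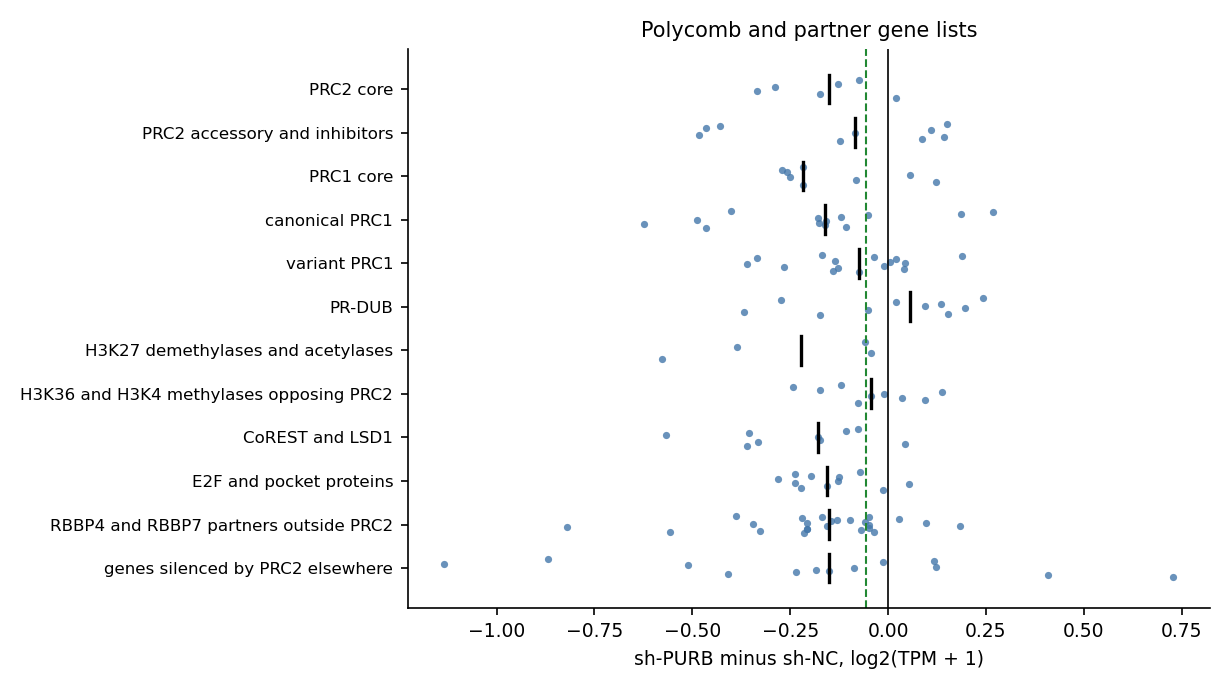
Difference between sh-PURB and sh-NC in log2(TPM + 1) for each tested gene of the 12 lists, with 1 point per gene, a black tick at each list's median and a dashed line at the median of all tested genes (-0.06). The medians run from -0.22 for the H3K27 demethylases and acetylases to 0.06 for PR-DUB, and the widest spread is among the genes silenced by PRC2 elsewhere, from RUNX3 at -1.13 to BMPR1B at 0.73.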

How the data were processed

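The authors deposited TPM for each gene symbol and library, in 1 joint table whose values equal those of the single-library tables. Kallisto 0.44.0, sleuth, DESeq2 and bcl2fastq 2.19 are listed in the submitters' processing notes, as are the builds GRCm38 and GRCh38, without saying what each was used for. The annotation, the strand setting and the way transcripts were summed to genes are not given in the sources used here. Reads shared by similar genes can be split between them, which is why shared 31-base words were counted.

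A row with no gene name held 0.921% to 1.66% of a library and was left out. Genes at 1 TPM or more in at least 2 libraries were tested with limma 3.58.1 (R 4.3.3) on log2(TPM + 1), with an intensity trend, Benjamini-Hochberg adjustment over all 14269 genes and a threshold of 0.05. Degrees of freedom were 2 residual and 2.92 prior. The fit was also run on 20 simulated datasets with 200 changed genes in each. It called 5.45% of the 2-fold and 45.3% of the 4-fold changes, and 3.33% of its calls were false. Ratios are of mean TPM. Plots were made in matplotlib 3.10.9 under Python 3.11.15.

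Groups came from the sample titles. The members and lists were chosen with earlier results of these data known. Named were all members, PURB, HOTAIR, RBBP7, EPOP, EZHIP, KDM6A and KDM6B, from each list the genes called or else the 3 with the smallest p, and the 5 profiles nearest to EZH1 and to EZH2. SUZ12P1, SYNC, RBBP4P1, CUTA, JARID2-AS1, LCOR, LCORL, EP300 and CDKN2A were named after their values were seen. So were E2F1, E2F2, E2F3, E2F4, E2F7, RB1, RBL2 and TFDP1. Coordinates and gene types are from GENCODE v29 on GRCh38, where 36727 symbols matched by current names, 2715 by other names and 77 by none. Promoters are RefSeq windows on GRCh38.p14. The alternatives used other pseudocounts (0.1 or 0.5), other filters (none, or 5 TPM), quantile or median-ratio scaling, TPM recomputed without genes above 1% of a library and mitochondrial genes, protein-coding genes only, a replicate block, robust moderation or no trend in limma, and 1 library fewer.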

Additional observations from a re-analysis of the deposited data

How the results depend on the processing

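With 2 libraries in each group the 95% intervals of the members spanned changes of either sign for 6 of the 10, and TPM gives no depth to narrow them. None of the 10 members was called under any alternative that kept all 4 libraries. With a pseudocount of 0.1, no filter or no limma trend, no gene of the table was called, so those settings could not have called a member. EZH2, EZH1, RBBP4, JARID2, PHF1, MTF2 and PHF19 kept their direction under all alternatives. EZH1 and JARID2 could not be tested with the filter at TPM 5. The count of members with separate groups was 7, from 6 to 8 with other scalings (47.5% to 49.8% of all genes), and from 8 to 9 with a library left out (70.4% to 78.0% of all genes). The number of genes called over the whole table was 41, and became 0 with a pseudocount of 0.1, 0 with no filter, 121 with the filter at TPM 5, 80 after median-ratio rescaling, 118 after quantile normalization, 404 among protein-coding genes only, 118 with the replicate block, 0 without the limma trend, 125 with robust moderation and 0 without any 1 library; the cause was not tested, and a fit without 1 library has 1 residual degree of freedom. The 41 were 12 higher and 29 lower, against 26 higher and 34 lower with recomputed TPM. The median difference of the members, -0.23, was -0.16 after median-ratio rescaling, -0.18 after quantile normalization, -0.10 with recomputed TPM, -0.20 among protein-coding genes and -0.30 to -0.16 without 1 library. Recomputed TPM moved the median of all genes by 0.13, and relative to that median the members stood at -0.18, beside -0.17 as reported. The sign turned for SUZ12 (6.0e-05 with median-ratio rescaling, 0.070 with recomputed TPM) and AEBP2 (0.014 with recomputed TPM). With each library left out in turn, EED ranged from -0.056 (no sh-NC replicate 1) to 0.098 and was -0.05 with no sh-PURB replicate 2, SUZ12 ranged from -0.15 to 0.0055 (no sh-NC replicate 2) and AEBP2 from -0.27 to 0.018 (no sh-NC replicate 2). The polycomb-like share of accessory TPM, -0.0833 points, ranged from -1.89 to 1.72 points without 1 library, and was 1.81 points without MTF2 and 1.31 without PHF1. Replicate numbers are shared by the groups, and the deviations of same-numbered libraries correlated at 0.19 across 14269 genes. With 2 pairs this does not show a pairing, and the replicate block called 0 members.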
